A study of Mus musculus with 12 samples.

Results

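Solute carriers are the membrane proteins that move sugars, amino acids, metals, ions, nucleotides and metabolites across the plasma membrane and the membranes of organelles without hydrolysing ATP themselves. They are numbered by family, and members of a family share a fold and often a kind of substrate. In macrophages they are best known for iron recycling, for feeding glycolysis and the tricarboxylic acid cycle, and for starving microbes of metals and amino acids inside phagosomes. The solute carrier genes described here were all genes on the array whose name begins with Slc and a family number, apart from 5 genes left out by name (Slc7a1, Slc7a2, Slc7a11, Slc30a1 and Slc2a1), with a probe that the scanner software rated well above background throughout 1 or more groups of 3 arrays, at 1 probe per gene. They numbered 213 of the 16847 genes tested. The array carried 308 such gene names on 488 probes, and 90 names had no probe that passed the filter.

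RNA came from thioglycollate-elicited peritoneal macrophages of female mice aged 10 weeks, either C57BL/6 or MyD88-/- (MyD88-null), collected 96 h after the injection. Cells of every group, controls included, were loaded overnight with cholesterol at 10 µg/ml. Polymyxin B, which binds endotoxin, is recorded at 25 µg/ml for every group, controls included. ApoA-I, the chief apolipoprotein of HDL particles, was given at 10 µg/ml for 2 h. A preincubation of 30 min is recorded in the apoA-I groups alone. Each of 3 replicate experiments gave 1 array to each of the 4 groups (each genotype with and without apoA-I), 12 arrays in all. The question set by this design is which transcripts change with apoA-I and whether the change depends on MyD88, the adaptor of most Toll-like receptors. The labels do not say whether an array held cells of 1 mouse or of several, so p-values speak only to the spread among these 3 experiments, which may be technical. Plated peritoneal cells were not sorted, and in such bulk RNA fewer cells of a type and less RNA per cell cannot be told apart.

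Levels are given as log2 of the processed Cy3 intensity minus the array's 75th percentile, so that a value of 0 lies at that percentile and a step of 1 is a doubling. Levels of different probes are not compared. Of the 213 solute carrier genes, 181 (85%) were well above background on all 12 arrays, against 84.5% of all genes tested. Another 9 passed in 3 groups and 10 in 2 groups. The remaining 13 passed in a single group, namely 5 in C57BL/6 controls, 1 in C57BL/6 cells with apoA-I, 2 in MyD88-null controls and 5 in treated MyD88-null cells. Through apoA-I groups alone 8 genes entered, and through control groups alone 9. The rule goes by name, and 4 of the 213 are not carriers: Slc9a3r1 and Slc9a3r2 regulate an exchanger, Slc4a1ap encodes an adaptor protein and Slc7a6os lies on the opposite strand of a carrier gene. They are kept in all counts over the 213 and form no part of the classes below.

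The 75th percentile of the processed intensity ran from 199 to 1408 over the arrays, and the array at the low end, the first MyD88-null apoA-I array, also had the highest share of probes well above background (73.6%, against 57.6% to 67.1% on the others). Log2 values of replicate arrays correlated at 0.915 to 0.979 across genes. For 2 samples, the second C57BL/6 control and the second MyD88-null apoA-I sample, the free-text description contradicts the title on whether apoA-I was given, and the titles were followed. Myd88, the deleted gene, bears on the genotype labels and not on the treatment labels. It stood at 3.48, 3.49 and 2.96 in C57BL/6 controls and at 1.87, 2.10 and 1.40 in MyD88-null controls, a difference of -1.52 (adjusted p = 0.213, and 0.00401 with the experiment as a block). With apoA-I it read 4.17, 4.29 and 3.41 in C57BL/6 cells and 2.75, 3.25 and 2.43 in null cells, lower by 1.15 (adjusted p = 0.942, and 0.0247 with the block). It was higher with apoA-I than without in null cells, by 1.02 (adjusted p = 0.291, and 0.00704 with the block), and the second null treated array lay above the third C57BL/6 control. Its signal was well above background on all null arrays, and where its probe lies relative to the deleted part was not analysed here. Of 11 macrophage markers tested, Emr1, Cd68 and Csf1r stood at 3.96 or above on all 12 arrays, while Mertk stood at 0.02 to 1.74. With apoA-I, 7 of the 11 were higher in C57BL/6 cells and 6 in null cells. Cd14 passed with the block in C57BL/6 cells (1.61, adjusted p = 0.0150). In null controls 3 of the 11 were higher than in C57BL/6 controls (median -0.24). Markers of other cells moved too, with summed signals given in units of the array's 75th percentile. Of 7 T cell markers, 6 were higher with apoA-I in C57BL/6 cells (median log2 difference 0.28, sums of 0.884 to 1.91 in controls and 1.23 to 2.36 with apoA-I). In MyD88-null cells all 7 were higher (median 0.84, sums of 0.871 to 1.95 and 1.40 to 3.06), and 2 passed with the block, Lck (adjusted p = 0.0214) and Cd247 (adjusted p = 0.0412). Cd247 was well above background on 0 of 6 control arrays, 3 C57BL/6 treated arrays and 2 null treated arrays, so its size of change is not given; it also passed in C57BL/6 cells. With apoA-I, 11 of 11 mesothelial and fibroblast markers were higher in C57BL/6 cells and 10 of 11 in null cells. Of these, 0 passed in either genotype, with or without the block. Their sums overlapped in both genotypes (67.95 to 235 in C57BL/6 controls and 85.34 to 252.6 with apoA-I). Mast cell markers were higher for 7 and 6 of 7, and neutrophil markers for 3 and 4 of 4. B cell markers were higher for 3 of 7 in both, eosinophil markers for 1 of 2 in both, and red blood cell markers for 1 and 2 of 3. Over all genes, 49.8% and 54.8% had a change above 0. Of 7 mast cell markers, 6 were lower in null than in C57BL/6 controls (sums of 3.40 to 5.60 against 6.22 to 8.34). Of 7 B cell markers, 5 were lower there (median -0.37, with Ms4a1 at -0.95 and Cd79b at -0.75), and Cd22 and Blnk were higher. Whether these other cells had a part in the results below was not tested.

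Promoters of Slc2a6 and Slc25a25 are shown to give the sequence around their start sites. They come from RefSeq on build GRCm38.p6 and run from upstream of an annotated start into the first transcribed bases, 300 bases each, 5′ to 3′ on the gene's strand. The promoter table held a promoter for 161 of the 213 genes, among them 1 for Slc2a6 and 3 for Slc25a25. It held 0 for Slc25a37, Slc39a14, Slc26a11 and Slc40a1, so their promoters are not shown. Capitals mark matches on either strand to any of 8 motifs: the kappaB consensus, the AP-1 site TGANTCA, the cAMP response element TGACGTCA, the C/EBP-ATF core TGATGNAA, the E-box CACGTG, the metal response element core TGCNCNC, the interferon-stimulated response element core, and the antioxidant response element core TGACNNNGC. The Slc2a6 window, at chr2:27027949-27028248 on the minus strand, is shown first, then the upstream-most Slc25a25 window, at chr2:32451421-32451720, and the third Slc25a25 window, at chr2:32424017-32424316, both also on the minus strand.
Slc2a6: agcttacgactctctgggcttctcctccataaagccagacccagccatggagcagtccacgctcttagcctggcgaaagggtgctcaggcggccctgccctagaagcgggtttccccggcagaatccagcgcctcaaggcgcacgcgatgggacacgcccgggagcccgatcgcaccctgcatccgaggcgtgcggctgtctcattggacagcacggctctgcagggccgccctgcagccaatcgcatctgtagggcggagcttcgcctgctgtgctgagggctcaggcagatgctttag
Slc25a25, start 1: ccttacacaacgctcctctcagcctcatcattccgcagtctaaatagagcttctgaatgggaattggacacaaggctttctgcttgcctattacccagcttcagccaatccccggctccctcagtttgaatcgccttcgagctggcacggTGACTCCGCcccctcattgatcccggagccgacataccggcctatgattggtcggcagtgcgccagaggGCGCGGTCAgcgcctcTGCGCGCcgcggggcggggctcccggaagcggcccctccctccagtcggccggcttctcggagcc
Slc25a25, start 3: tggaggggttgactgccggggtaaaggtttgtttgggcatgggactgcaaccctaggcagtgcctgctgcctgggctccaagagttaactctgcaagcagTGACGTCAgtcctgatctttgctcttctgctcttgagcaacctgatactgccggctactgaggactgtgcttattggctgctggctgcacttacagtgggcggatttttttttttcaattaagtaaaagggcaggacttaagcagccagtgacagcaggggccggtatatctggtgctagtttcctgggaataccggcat

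No match to the 8 motifs lay in the Slc2a6 window or in the second Slc25a25 window. In the first Slc25a25 window the capitals are 2 matches to the antioxidant core and 1 to the metal response core. In the third they are a full TGACGTCA, which begins 150 bases before the start. That element occurred in 1.34% of the 224 promoters of solute carrier genes and in 1.79% of all 32851 promoters. Matches to the kappaB consensus lay in 10.3% and 8.46%, to the AP-1 site in 5.8% and 7.81%, to the C/EBP-ATF core in 2.23% and 3.97%, and to the interferon-stimulated core in 1.34% and 3.44%. The E-box was found in 13.4% of carrier promoters and 7.15% of all, the antioxidant core in 17% and 12.4%, and the metal response core in 59.8% and 51%. Carrier promoters also had more G and C (a median of 60.3%, against 52.7%), which moves with how often such motifs occur; its part in these shares was not tested.

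ApoA-I raised 2 solute carrier transcripts in C57BL/6 macrophages and 3 in MyD88-null macrophages, and it lowered none past the threshold in either. Slc25a37, which encodes mitoferrin, the importer of iron into the mitochondrial matrix, and Slc2a6, which encodes a lysosomal member of the glucose transporter family, rose in both genotypes. Slc25a25, which encodes a calcium-regulated carrier that exchanges ATP-magnesium for phosphate across the inner mitochondrial membrane, rose in MyD88-null cells and reached the threshold in C57BL/6 cells with the experiment as a block. The test was limma on all 16847 genes, with Benjamini-Hochberg adjusted p under 0.05. The 2 genes called higher in C57BL/6 cells stand beside 0.825% of all genes called higher there, and the 3 in MyD88-null cells beside 1.13%; as shares of the 213 genes they are near that background.

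Slc25a37 stood at 1.90, 1.38 and 1.66 in the C57BL/6 controls of experiments 1, 2 and 3, and at 3.36, 3.76 and 3.90 with apoA-I. Every treated array lay above every control. The log2 change was 2.03 ± 0.31 (SE, 3 arrays a group), a 4.08-fold rise (adjusted p = 0.0131). In MyD88-null cells the controls read 0.65, 0.46 and 1.54 and the treated arrays 3.04, 3.29 and 3.68, again without overlap. That change was 2.45 ± 0.31, or 5.47-fold (adjusted p = 0.00282). The chosen probe lies at chr14:64104507-64104566 of mouse build mm7, as the array files place it. Another 2 probes for Slc25a37 changed by 2.35 and 1.85 in C57BL/6 cells and by 1.92 and 2.02 in MyD88-null cells, none past the threshold when each probe was tested on its own (adjusted p = 0.0922 to 0.443). The C57BL/6 call was lost without the second or the third control (adjusted p = 0.0845 and 0.0611), without the second or the third treated array (0.0840 and 0.0550), and without both samples whose description contradicts the title (0.157). The null call held in all 12 fits that left out an array.

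Slc2a6 read 3.71, 3.16 and 2.95 in C57BL/6 controls and 5.23, 5.39 and 4.81 with apoA-I, a change of 1.87 ± 0.30 (3.65-fold, adjusted p = 0.0167). MyD88-null controls began lower, at 2.04, 1.57 and 2.23, and the treated null arrays reached 5.03, 5.12 and 4.39. The groups did not overlap in either genotype. In null cells the change was 2.90 ± 0.30, or 7.46-fold (adjusted p = 0.000675), the largest rise among the 213 genes. Its single probe lies at chr2:27028939-27028998 of build mm7. The treated arrays of both genotypes overlapped (-0.29 ± 0.30), while the null controls lay below the C57BL/6 controls by 1.33 ± 0.30 without overlap, which did not pass the threshold (adjusted p = 0.278, and 0.0925 with the block). The difference between the responses, 1.03 ± 0.42, also did not pass (adjusted p = 0.9997). The C57BL/6 call for Slc2a6 was lost without the second or the third control (adjusted p = 0.102 and 0.0847), without the first or the second treated array (0.0821 and 0.110), and without both samples of contradictory description (0.152), while the null call held in all 12 fits that left out an array.

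Slc25a25 read 1.72, 1.97 and 1.75 in C57BL/6 controls and 3.47, 3.19 and 3.04 with apoA-I. All treated arrays exceeded all controls, and the change of 1.42 ± 0.29 (2.68-fold) had an adjusted p of 0.0664, or 0.0344 with the block. In MyD88-null cells it went from 1.32, 1.77 and 1.70 to 3.96, 2.89 and 2.95, by 1.67 ± 0.29 (3.19-fold, adjusted p = 0.0212). The first null treated array was the highest of the 12, and without it the change was 1.32 (adjusted p = 0.0241). The null call was lost without the first, the second or the third null control (adjusted p = 0.110, 0.0651 and 0.0611) and without both samples of contradictory description (0.0748). Its probe lies at chr2:32422066-32422125 of build mm7, and its other 2 probes changed by 1.17 to 1.65 in the same direction. Those did not pass in either genotype when each probe was tested on its own (adjusted p = 0.118 to 0.757). The genotypes overlapped in controls (-0.22 ± 0.29) and in treated cells (0.03 ± 0.29).

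**Figure D1:**
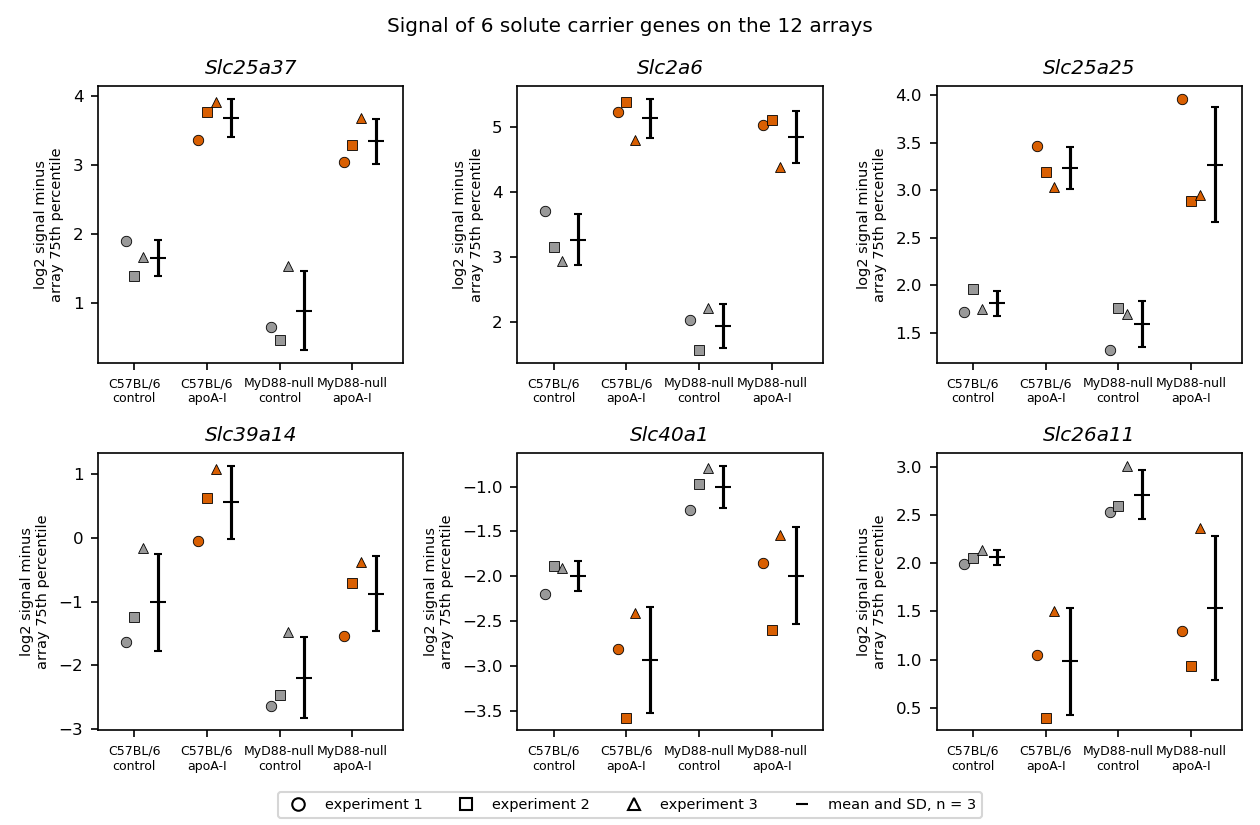
Log2 signal, scaled to each array's 75th percentile, for 6 solute carrier genes on the 12 arrays, by group on the horizontal axis; symbols mark the 3 experiments, grey controls, orange apoA-I, and bars the mean and SD of 3 arrays. Treated arrays lie above all controls of their genotype for Slc25a37, Slc2a6 and Slc25a25 and below them for Slc40a1 and Slc26a11; for Slc39a14 the MyD88-null groups overlap.

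The series' design text says that each experiment held all 4 samples, so arrays with the same number were paired and the fit was repeated with the experiment as a block. In experiments 1 and 2 the MyD88-null control and treated arrays lay on different slides and were scanned on different days. Within each of these pairs treatment cannot be told apart from slide and scan day. With it, 4 solute carrier genes passed in C57BL/6 cells, all higher, beside 2.37% of all genes: Slc25a37, Slc2a6, Slc25a25 and Slc39a14. In MyD88-null cells 7 passed higher, beside 3.47% of all genes, and 1 passed lower, beside 0.611%. The 7 were Slc2a6, Slc25a37, Slc25a25, Slc39a14, Slc12a5, Slc16a10 and Slc25a34, and the gene lower was Slc26a11. Without the first MyD88-null apoA-I array the block fit called 6 higher and 0 lower in null cells, and in C57BL/6 cells 8 higher and 1 lower. The share of all genes called in that fit is not given here, so these counts are not compared with those above.

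Slc39a14, an importer of zinc that also takes up iron and manganese, shifted from experiment to experiment more than the genes above. In C57BL/6 cells it went from -1.63, -1.24 and -0.16 in controls to -0.05, 0.63 and 1.09, and within experiments 1, 2 and 3 the difference was 1.58, 1.87 and 1.24. The treated arrays lay above all controls there. Its mean change of 1.57 ± 0.49 had an adjusted p of 0.306, and 0.00333 with the block. In MyD88-null cells controls of -2.64, -2.47 and -1.47 and treated arrays of -1.53, -0.71 and -0.39 overlapped, while the paired differences were 1.10, 1.76 and 1.08 (mean 1.32, adjusted p = 0.426, and 0.0063 with the block). Its second probe changed by 0.82 and 0.81 in C57BL/6 and null cells, and did not pass.

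Slc39a14 was also the only solute carrier gene that passed a comparison of the genotypes, and only with the block. MyD88-null cells were lower by 1.18 ± 0.49 in controls (adjusted p = 0.9998, and 0.0312 with the block), with overlapping arrays. With apoA-I they were lower by 1.43 ± 0.49 (adjusted p = 0.998, and 0.0255 with the block), without overlap. Without the first MyD88-null apoA-I array the treated difference was 1.38 in the block fit and did not pass (adjusted p = 0.0998). Blocked calls of a lower level in null cells covered 0.522% of all genes in controls and 0.184% with apoA-I.

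The metals class held 26 solute carrier genes, of zinc, iron, manganese, copper and magnesium transport. In limma's test 0 passed in either genotype without the block, and Slc39a14 alone passed with it, in both. Medians of the class were -0.02 in C57BL/6 and 0.03 in MyD88-null cells, beside 0.00 and 0.05 over all genes. Slc40a1, ferroportin, the exporter of iron from macrophages, read -2.20, -1.89 and -1.91 in C57BL/6 controls and -2.81, -3.58 and -2.41 with apoA-I. Null controls were at -1.26, -0.97 and -0.79 and treated null arrays at -1.85, -2.59 and -1.54. In each genotype the treated arrays lay below all controls, by 0.93 ± 0.34 and 0.99 ± 0.34, neither past the threshold (adjusted p = 0.461 and 0.372, and 0.109 and 0.0806 with the block). Null controls lay above all C57BL/6 controls for Slc40a1, by 0.99 ± 0.34 (adjusted p = 0.9998). Slc25a28, the second mitoferrin, differed by -0.29 ± 0.29 and -0.31 ± 0.29, within the spread of its arrays.

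**Figure D2:**
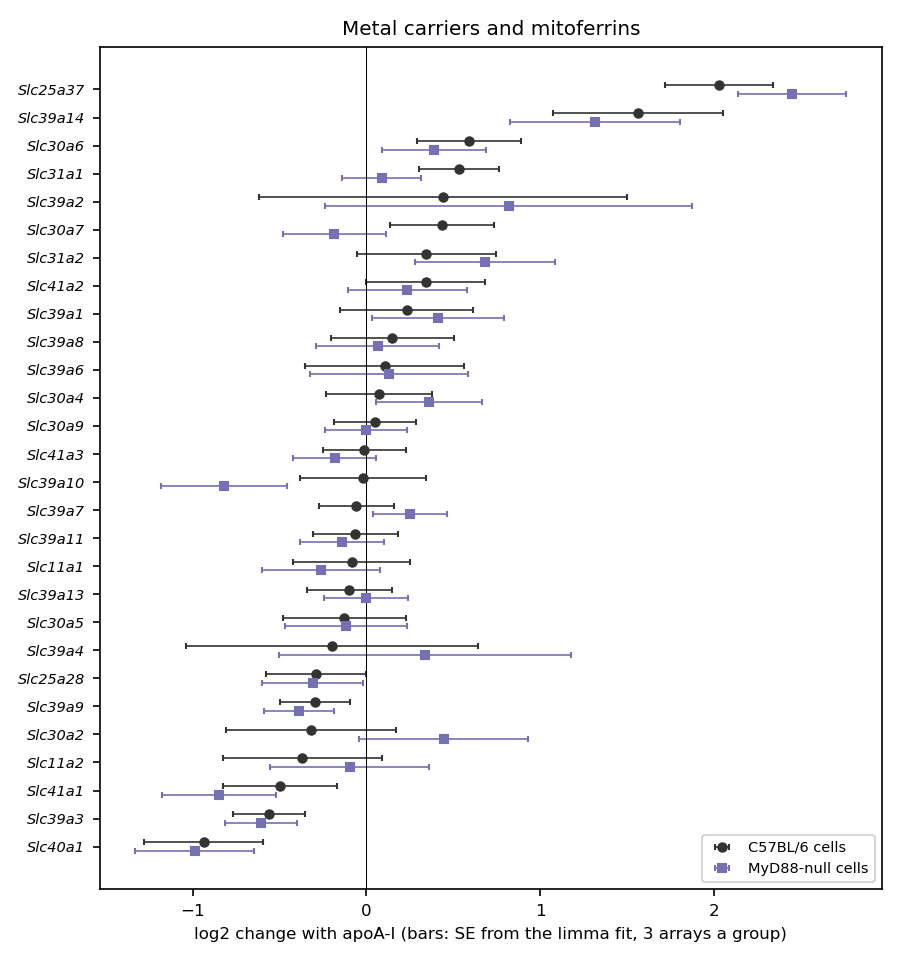
Log2 change with apoA-I for the 26 carriers of the metals class and the mitoferrins Slc25a37 and Slc25a28 (28 genes), ordered by the change in C57BL/6 cells; circles are C57BL/6 cells, squares MyD88-null cells, and bars the SE from the limma fit with 3 arrays a group. Slc25a37 and Slc39a14 lie at the high end and Slc40a1 at the low end in both genotypes, and most other carriers have bars that reach 0.

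Among the zinc importers, Slc39a3 lay lower with apoA-I without overlap in both genotypes (-0.56 ± 0.21 and -0.61 ± 0.21, adjusted p = 0.478 and 0.359). Slc39a10 read 0.20, -0.08 and -0.53 in null controls and -1.41, -0.65 and -0.81 with apoA-I (-0.82 ± 0.36, adjusted p = 0.567), and differed by -0.02 ± 0.36 in C57BL/6 cells. Slc41a1, a magnesium transporter, differed by -0.50 ± 0.33 and -0.85 ± 0.33 (adjusted p = 0.466 in null cells). Its second probe differed by -0.03 in C57BL/6 cells and by 1.00 in null cells, there in the opposite direction, and did not pass. The copper importer Slc31a1 read 3.46 to 3.63 in C57BL/6 controls and 3.89 to 4.26 with apoA-I (0.53 ± 0.23, adjusted p = 0.627), and differed by 0.09 ± 0.23 in null cells. Slc11a1, the phagosomal metal exporter of macrophages, differed by -0.08 ± 0.34 and -0.26 ± 0.34, and its relative Slc11a2 by -0.37 ± 0.46 and -0.10 ± 0.46. Genes that handle the same metals were counted from lists: of 18 iron genes tested (of 20 listed) 0 passed in either response, with or without the block, and their medians were 0.13 and -0.08. Of 9 genes of zinc and copper buffering 0 passed, and with the block the metallothioneins Mt1 and Mt2 passed in C57BL/6 cells (0.73 and 1.20, adjusted p = 0.0237 and 0.0195) and Mt2 in null cells (1.14, adjusted p = 0.0214).

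Of the 29 mitochondrial carriers, Slc25a37 passed in C57BL/6 cells and Slc25a37 and Slc25a25 in MyD88-null cells, while most of the class lay on the other side of 0. Only 9 of 29 had a change above 0 in C57BL/6 cells and 8 of 29 in null cells, with class medians of -0.18 and -0.22. The carriers with the brightest probes moved little: the adenine nucleotide translocases Slc25a5 and Slc25a4 differed by 0.13 ± 0.27 and 0.03 ± 0.23 in C57BL/6 cells and by -0.31 ± 0.27 and -0.08 ± 0.23 in null cells, and the phosphate carrier Slc25a3 by 0.17 ± 0.26 and -0.27 ± 0.26. Slc25a1, the citrate exporter, and Slc25a20, the carnitine-acylcarnitine carrier, differed by 0.01 ± 0.30 and -0.13 ± 0.25 in C57BL/6 cells. Slc25a27, an uncoupling protein relative, read -4.03, -3.84 and -3.80 in C57BL/6 controls and -4.69, -4.85 and -4.78 with apoA-I, where it was above background on 1 array of 3 (-0.89 ± 0.29, adjusted p = 0.337). Slc25a34, a carrier of unsettled substrate, read -3.51, -4.18 and -4.76 in null controls and -1.48, -1.76 and -3.97 with apoA-I. These overlapped, and the change of 1.75 ± 0.74 passed with the block alone (adjusted p = 0.0329) and not without the first null treated array (adjusted p = 0.109). In C57BL/6 cells Slc25a34 differed by -0.85 ± 0.74.

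**Figure D3:**
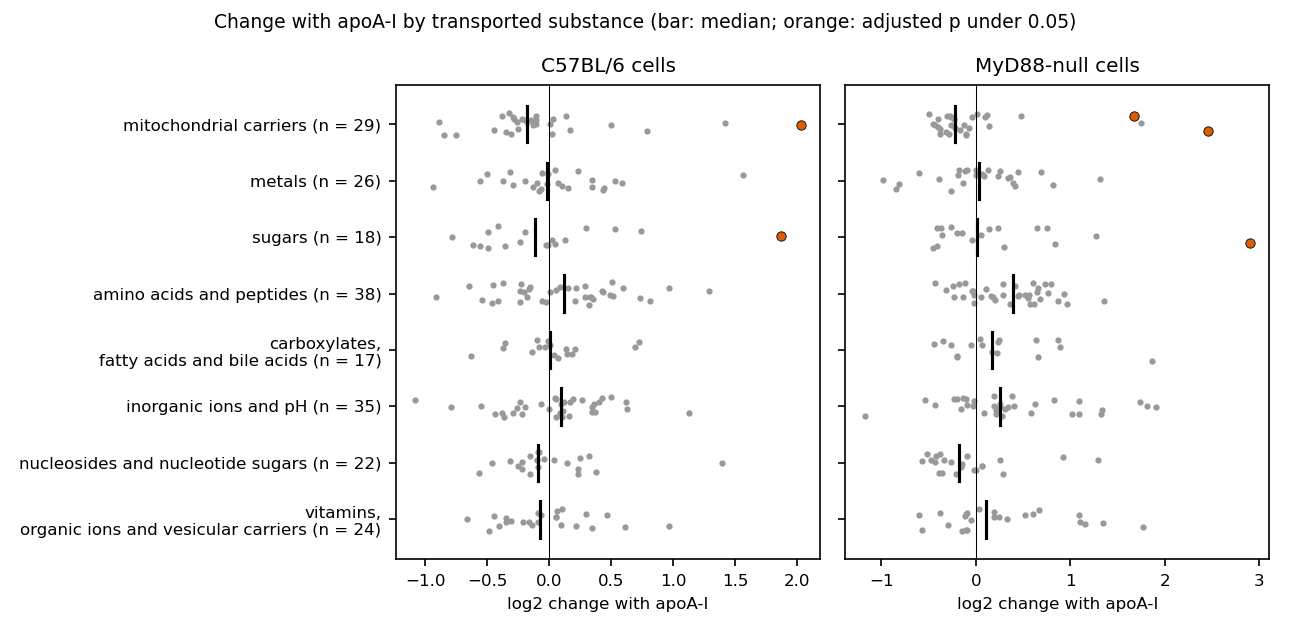
Log2 change with apoA-I of the solute carrier genes grouped by what they carry (rows, with the number of genes), in C57BL/6 cells on the left and MyD88-null cells on the right; each point is a gene, black bars are class medians and orange points have an adjusted p under 0.05. Slc25a37 is orange in both panels among the mitochondrial carriers, Slc25a25 in the right panel, and Slc2a6 among the sugar carriers in both.

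Slc2a6 was the only sugar carrier of 18 that passed in either genotype. Slc2a3, a high-affinity glucose transporter, differed by -0.03 ± 0.29 and -0.26 ± 0.29, and Slc37a2, a sugar-phosphate exchanger of the endoplasmic reticulum, by -0.23 ± 0.21 and -0.15 ± 0.21. Class medians were -0.11 and 0.01. None of the 17 carriers of carboxylates, fatty acids and bile acids passed without the block. Slc16a10, a transporter of aromatic amino acids in the monocarboxylate family, rose by 0.89 ± 0.32 in null cells in the block fit (adjusted p = 0.0385, and 0.417 without the block, with overlapping groups). In C57BL/6 cells its treated arrays lay above the controls, by 0.73 ± 0.32 (adjusted p = 0.659, and 0.0804 with the block). The lactate carriers Slc16a1 and Slc16a3 differed by 0.14 ± 0.47 and 0.21 ± 0.29 in C57BL/6 cells and by 0.05 ± 0.47 and 0.25 ± 0.29 in null cells. The fatty acid transport proteins Slc27a1 and Slc27a4 differed by 0.14 ± 0.36 and -0.01 ± 0.35 in C57BL/6 cells.

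The 38 carriers of amino acids and peptides held no gene past the threshold in either genotype, with or without the block in limma's test. Of these, 22 lay above 0 in C57BL/6 cells and 27 in null cells, with medians of 0.12 and 0.39. Slc6a12, a betaine and GABA transporter, read 1.91, 1.31 and 1.08 in C57BL/6 controls and 2.18, 2.81 and 2.22 with apoA-I, and 1.14, 0.47 and 0.97 in null controls and 2.06, 1.60 and 1.71 with apoA-I. Neither pair of groups overlapped, and the changes of 0.97 ± 0.29 and 0.93 ± 0.29 did not pass (adjusted p = 0.287 and 0.288). Slc3a2, the heavy chain that carries the light subunits of amino acid exchangers to the surface, differed by 0.73 ± 0.33 and 0.42 ± 0.33 with overlapping arrays. Of its light chains, Slc7a5 (0.49 ± 0.33 and 0.57 ± 0.33), Slc7a8 (0.59 ± 0.31 and 0.29 ± 0.31) and Slc7a7 (0.32 ± 0.17 and 0.46 ± 0.17) did not pass either, and Slc7a7 arrays did not overlap in either genotype. The light chain Slc7a6 differed by 0.08 ± 0.24 in C57BL/6 cells and by -0.14 ± 0.24 in null cells. Slc15a3, a lysosomal histidine and peptide transporter, lay higher without overlap in C57BL/6 cells (0.51 ± 0.21), and its relative Slc15a4 lower (-0.37 ± 0.21). The taurine and creatine transporters Slc6a6 and Slc6a8 were among the brightest probes and differed by -0.18 ± 0.28 and 0.01 ± 0.19 in C57BL/6 cells. Glutamine carriers Slc38a1, Slc38a2 and Slc1a5 differed by 0.21 ± 0.20, 0.29 ± 0.31 and -0.03 ± 0.19.

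Among the 35 carriers of inorganic ions, Slc26a11, a sulphate and anion transporter, gave the largest decreases. It read 1.99, 2.05 and 2.14 in C57BL/6 controls and 1.04, 0.40 and 1.51 with apoA-I, and 2.53, 2.59 and 3.00 in null controls and 1.29, 0.94 and 2.36 with apoA-I. All treated arrays lay below all controls of their genotype. The changes were -1.08 ± 0.38 and -1.18 ± 0.38 (adjusted p = 0.423 and 0.309), and the second passed with the block (adjusted p = 0.0417, against 0.0602 in C57BL/6 cells). Without the first null treated array it was -1.09 with the block and did not pass (adjusted p = 0.128). Slc12a5, a potassium-chloride cotransporter best known from neurons, rose in the block fit in null cells from -3.38, -3.33 and -4.16 to -1.26, -2.36 and -3.29 (1.32, adjusted p = 0.0338), without overlap. Leaving out the first null treated array lowered this to 1.08 (adjusted p = 0.106), and in C57BL/6 cells it differed by 0.12 ± 0.55. Slc24a3, a potassium-dependent sodium-calcium exchanger, read -3.72, -3.51 and -5.21 in null controls and -2.44, -2.91 and -1.37 with apoA-I (1.91 ± 0.47, adjusted p = 0.125), and stayed between -3.35 and -2.85 in all C57BL/6 arrays.

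Slc24a6, the mitochondrial sodium-calcium exchanger now named Slc8b1, lay lower with apoA-I in C57BL/6 cells (-0.55 ± 0.24, adjusted p = 0.672) and differed by -0.02 ± 0.24 in null cells. Slc20a1, a phosphate importer, lay higher without overlap in C57BL/6 cells (0.62 ± 0.25) and overlapped in null cells (0.26 ± 0.25). Its second probe differed by -0.28 in C57BL/6 cells, in the opposite direction, and by 0.84 in null cells, and did not pass. Slc4a7, a sodium bicarbonate cotransporter, and Slc1a2, a glutamate transporter, differed between experiments more than between groups. Slc4a7 read 4.04 to 7.10 in experiment 3 and 0.43 to 3.79 in experiments 1 and 2. Slc1a2 read -6.15 to -2.91 in experiment 3 and -2.10 to -0.30 in the other experiments. All arrays of experiment 3 were scanned on a day of their own, so experiment and scan day cannot be told apart for them. The SE of their changes was 1.75 and 1.46, and neither passed with the block.

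Neither the 22 carriers of nucleosides and nucleotide sugars nor the 24 carriers of vitamins, organic ions and vesicular cargo held a gene past the threshold, with or without the block. Medians were -0.09 and -0.18 in the first class and -0.08 and 0.11 in the second, in C57BL/6 and null cells. Slc29a3, a lysosomal nucleoside transporter, differed by -0.56 ± 0.31 and -0.52 ± 0.31, Slc29a1 at the plasma membrane by -0.04 ± 0.31 and -0.15 ± 0.31, and Slc28a2 by -0.09 ± 0.27 in both. The carnitine and ergothioneine carriers Slc22a5 and Slc22a4 differed by 0.06 ± 0.18 and -0.31 ± 0.22 in C57BL/6 cells, and the ascorbate transporter Slc23a2 by 0.34 ± 0.24. Of 15 genes listed as partners or other plasma membrane carriers and tested, such as the monocarboxylate carrier chaperone Bsg, 0 passed in either response, with or without the block. Of 48 Slc genes listed for known roles in macrophages, 47 were tested, and 2 passed higher and 0 lower in each response (3 and 0 with the block), with medians of 0.08 and 0.00 in C57BL/6 and null cells. The 5 genes left out by name are not in that list, and 2 of the 47, Slc48a1 and Slc46a3, stand on the array under other names and so are not among the 213. The 5 Slc genes left out by name were tested in the same fit: Slc7a2 passed in both genotypes (3.33 and 2.71, adjusted p = 0.00264 and 0.00716), and the others differed by -0.60 to 1.67 in C57BL/6 and by -0.77 to 1.45 in null cells without passing.

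Groups that did not overlap were counted over all solute carrier genes. Treated and control arrays were separate for 30 of 213 in C57BL/6 cells, beside 13.1% of all genes, and for 23 in MyD88-null cells, beside 11.6%. In both genotypes and in the same direction, 10 genes were separate (4.69%, beside 5.05% of all genes), 7 higher and 3 lower. Those higher were Slc25a37, Slc2a6, Slc25a25, Slc6a12, Slc7a7, Slc12a4 and Slc26a2, and those lower were Slc26a11, Slc40a1 and Slc39a3. Slc12a4, a potassium-chloride cotransporter, and Slc26a2, a sulphate transporter, are named here because they complete this count; they differed by 0.62 ± 0.18 and 0.42 ± 0.17 in C57BL/6 cells and by 0.58 ± 0.18 and 0.34 ± 0.17 in null cells, and did not pass. These shares are close to those of all genes. The median change of the 213 genes was -0.01 in C57BL/6 and 0.06 in MyD88-null cells, beside 0.00 and 0.05 over all genes. Changes had the same sign in both genotypes for 149 (70%) of them and for 66.5% of all genes, and correlated across the 213 genes at 0.426 and across all genes at 0.506, where genes are not independent replicates.

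Large changes were more frequent in MyD88-null cells and on the high side, among the solute carrier genes as over all genes. There 22 of the 213 had a log2 change above 1 and 1 a change below -1, beside 11.8% and 0.742% of all genes. Without the first null treated array 14 did, beside 5.02% of all genes. In C57BL/6 cells the counts were 7 and 1, beside 3.76% and 2.13%. As shares of the 213 genes, the counts above 1 are near those of all genes.

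**Figure D4:**
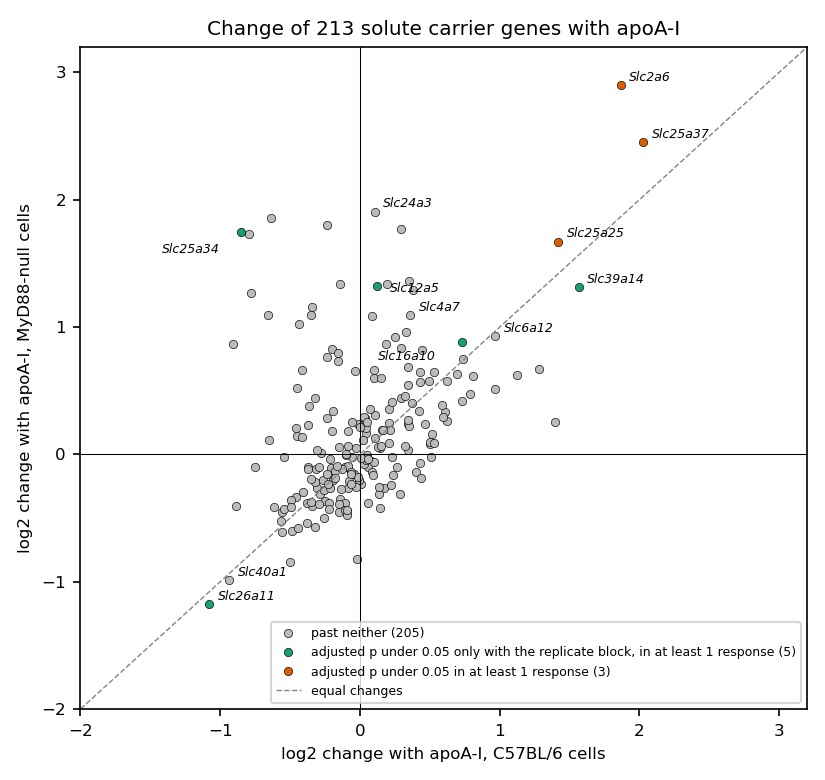
Log2 change with apoA-I in C57BL/6 cells (horizontal) and in MyD88-null cells (vertical) for the 213 solute carrier genes; orange points have an adjusted p under 0.05 in at least 1 genotype (3 genes), green points only with the experiment as a block (5 genes), and the dashed line marks equal changes. Among the labelled genes, Slc2a6 and Slc25a37 stand apart at the upper right, Slc26a11 and Slc40a1 at the lower left, and Slc25a34 and Slc24a3 far above the line. The log2 change was higher by more than 1 in null than in C57BL/6 cells for 20 of the 213, beside 9.46% of all genes.

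No solute carrier gene passed the test of a difference between the genotypes' responses. In limma's test of the difference 0 of 213 passed, as did 0 (0%) of all genes, with or without the block. At an unadjusted p under 0.05 there were 3, beside 1.18% of all genes, and each had the higher change in null cells. They were Slc25a34 (2.60 ± 1.05), Slc24a3 (1.80 ± 0.67) and Slc2a6 (1.03 ± 0.42). For each of the 3 the null controls lay below all C57BL/6 controls. For Slc25a37 the difference was 0.42 ± 0.44, for Slc25a25 0.25 ± 0.41, for Slc39a14 -0.25 ± 0.69, for Slc40a1 -0.05 ± 0.48 and for Slc26a11 -0.10 ± 0.54. The number of arrays limits the precision of these differences, and a p above the threshold does not show that the responses were alike.

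Between the genotypes without apoA-I, 0 of 213 solute carrier genes passed without the block, beside 0.095% of all genes, and with apoA-I 0 passed, beside 0.0653%. At an unadjusted p under 0.05 there were 18 in controls, beside 3.52% of all genes (8.45% of the solute carrier genes), 7 of them higher and 11 lower in null cells, and 10 with apoA-I, beside 3.92% (4.69%). Arrays of the genotypes were separate for 28 genes in controls, beside 10.3% of all genes, and for 16 with apoA-I, beside 5.65%. The largest gap in controls was that of Slc39a4, a zinc importer of the intestine, named after its values were seen. It read 3.67, 1.05 and 0.39 in C57BL/6 controls and -0.91, -0.19 and -0.98 in null controls (-2.40 ± 0.84, adjusted p = 0.9998). The first experiment's C57BL/6 cells alone were the highest, at 3.67 and, with apoA-I, 3.09. Slc6a8, the creatine transporter, was higher in null controls without overlap (0.46 ± 0.19, adjusted p = 0.9998), as was Slc25a27 (0.91 ± 0.29, adjusted p = 0.917). The copper transporter Slc31a2 was lower in null controls without overlap (-0.92 ± 0.40, adjusted p = 0.9998).

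Patterns over the 12 arrays were compared by Pearson correlation of log2 values, as a description. All genes share the arrays and the treatment groups, so high values are common among genes that rose with apoA-I. The carriers most like Slc2a6 were Slc25a37 (0.941), Slc6a12 (0.898) and Slc25a25 (0.888), and among all genes Rhbdf2 (0.986), Tnfaip3 (0.984) and Btg1 (0.983). Slc25a37 was most like Rab11fip1 (0.98), Gpr85 (0.979) and Ifrd1 (0.979), and among carriers like Slc2a6 and Slc12a4 (0.929). Slc25a25 was most like the immediate early genes Ier2 (0.972) and Junb (0.97), and then Tuba6 (0.97).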

How the data were processed

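RNA of 12 mouse macrophage samples was measured on one-colour Agilent arrays. Per the file headers, the deposited intensities were made with Agilent Feature Extraction 9.5.1.1 or 9.5.3.1 (9.5 in the submitters' processing notes). A deposited table of log10 values of the same arrays, whose centring stays unknown, and the raw mean and background intensities served as alternatives. The scale of that table was read from correlations of 0.993 to 1.000 with each array's log10 processed intensity, and its array medians ran from 1.82 to 1.87.

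From the deposited processed intensities, log2 values minus each array's 75th percentile were computed. Outlier spots were dropped, the 24347 probes rated well above background throughout 1 or more groups were kept, and the probe with the highest mean stood for a gene name. Of the solute carrier genes, 193 were matched to RefSeq by accession and 20 by symbol. limma 3.58.1 in R 4.3.3 fitted 4 group means to all 12 arrays (8 residual and 2.17 prior degrees of freedom), two-sided, with Benjamini-Hochberg adjustment over all 16847 genes and a threshold of 0.05; SE is that of the fit.

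Arrays of the same experiment, paired by the series' design text, tended to deviate together, so blocked values are given where they change a call. Correlations of deviations from group means ran from 0.295 to 0.859 (median 0.611) in 18 pairs with the same number. In 36 pairs with different numbers they ran from -0.812 to 0.545 (median -0.398), so the ranges overlapped. The fit was tested on simulated data. Named were genes past the threshold, those past it with the block and without overlap, the 5 largest increases and decreases with an unadjusted p under 0.05 per response, the 8 brightest, a list of carriers known from macrophages, the genes left out by name and Myd88. Slc12a4, Slc16a10, Slc25a28, Slc26a2 and Slc39a4 fall outside that rule and were named after their values were seen. The members and lists were chosen with earlier results of these data known. Alternatives covered scaling, background, filters, probe choice, naming, blocks, the deposited table, the 2 conflicting descriptions and each array left out.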

Additional observations from a re-analysis of the deposited data

How the results depend on the processing

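Alternatives were run for the counts and medians below and for 22 log2 changes of 15 leading genes, among them Slc25a37, Slc2a6, Slc25a25, Slc39a14 in C57BL/6 cells, Slc40a1 and Slc26a11. None of those 22 changes reversed, and other named genes were not rerun. Solute carrier genes past the threshold in C57BL/6 cells (2) became 0 with the array median as scale, 1 with no filter on dim probes, 4 with the replicate block, 7 with slide as a random block, and 5 with scan day as a block, fixed or random. They became 0 without the 2 samples of contradictory description, with or without the block, and 0 with treatment taken from the descriptions. The count in MyD88-null cells (3) became 1 with the array median, 8 with the replicate block or the slide block, and 0 with the descriptions' treatment. With the replicate block 1 gene passed between controls and 1 between treated cells. The block without the first MyD88-null apoA-I array gave 9, 6 and 1 for C57BL/6 cells, null cells and controls. The scan day as a random block and the blocked fits that left out arrays were chosen after seeing the data. For the alternatives the share of all genes called is not given, so their counts are not read as a result about solute carriers. Leaving out each array in turn gave 0 to 3 genes in C57BL/6 cells, 2 to 3 in null cells and 0 in the genotype comparisons and the difference of responses. It gave medians of -0.11 to 0.04 and -0.024 to 0.14.

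The median change in null cells (0.06) was -0.39 with the array median, where that of all genes was -0.40, so changes there are read against that shift. It was -0.12 with quantile normalization, 0.12 with normexp background correction, -0.023 with probes above background on all 12 arrays, -0.039 in the deposited table, and 0.14 without the samples of contradictory description (0.13 with the block). The cause of these shifts was not tested. With 3 arrays a group, large changes also missed the threshold where arrays varied, such as 1.57 for Slc39a14 in C57BL/6 cells and 1.91 for Slc24a3 in null cells. The Slc24a3 probe was not well above background on every array.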
